A study of Mus musculus with 6 samples.

Results

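Snap25 and Cadps encode proteins of regulated vesicle exocytosis, and their mRNA signals were described in adult mouse neocortex with and without the RNA-binding protein KHSRP. Their probes were found by gene symbol in the study's supplementary table of array results. With 15 control genes named from RefSeq, 1803 of the 60915 probes on the array and 1727 genes had a name. Of these probes, 1522 were named from the table's genes higher in Khsrp-/- and 266 from its genes lower. A lower gene was named only where its raw intensities matched a single probe. The study reports more mRNAs lower than higher, so many lower genes were left without a name here. Snap25 and Cadps had 1 probe each, so 2 probes are described in depth, with Cadps2, the paralog of Cadps, beside them. That table had been selected on the same Khsrp-/- against wild type contrast in the same 6 arrays. The values of these genes are therefore given as a description, with no p-value.

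Neocortex RNA came from 3 adult male Khsrp-/- mice and 3 adult male wild type (Khsrp+/+) mice, which the series describes as coming from the same litter, with 1 one-colour array for each mouse. Per the study's methods, the Khsrp-/- mice carry a constitutive deletion covering exons of Khsrp and were crossed to C57Bl/6 over many generations, so the deletion was not limited to neurons or to the adult brain. The tissue is named cortex in the sample labels and PFC in the supplementary table. Khsrp itself is not analysed here because no probe was named for it, so the genotypes rest on the labels. In bulk tissue, fewer cells of a type and less RNA per cell cannot be told apart.

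SNAP25 is a plasma membrane SNARE protein. It joins syntaxin on the target membrane and synaptobrevin (VAMP) on the vesicle in the helical bundle that drives membrane fusion at synapses and in endocrine cells. CADPS, also called CAPS1, is a calcium-dependent activator of secretion that primes dense-core vesicles, which hold neuropeptides and neurotrophins, and takes part in priming synaptic vesicles. CADPS2 has a similar role in other cells. KHSRP binds AU-rich elements in mRNAs and promotes their decay.

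In RefSeq (GRCm38.p6) Snap25 lies on chromosome 2, Cadps on chromosome 14 and Cadps2 on chromosome 6. The supplementary table pairs the Snap25 probe with NM_011428, the Cadps probe with NM_012061 and the Cadps2 probe with NM_001252105. RefSeq lists 4 curated mRNAs for Snap25, 5 for Cadps and 7 for Cadps2. The exon that each probe matches was not analysed here, so signals are per probe and not per isoform.

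All 3 probes were well above background on 6 of 6 arrays and none was saturated. The Snap25 signal stood 605 to 1172 times above the local background of its spot. For Cadps this multiple was 15.5 to 24.4. The scanner software put the error of a single spot at about 10% of its signal for both genes, or 0.14 on the log2 scale.

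Before any scaling between arrays, the genotypes overlapped for both genes. The Snap25 intensity was 18184, 16486 and 21823 on Khsrp-/- arrays 1 to 3, with a mean of 18831 ± 2727 (SD, n = 3). It was 16331, 17581 and 13300 on wild type arrays 1 to 3, with a mean of 15737 ± 2201 (SD, n = 3). Khsrp-/- array 3 was the brightest and wild type array 3 the dimmest, while Khsrp-/- array 2 lay below wild type array 2.

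The Cadps intensity was 438, 377 and 325 on the Khsrp-/- arrays, with a mean of 380.2 ± 56.9 (SD, n = 3). On the wild type arrays it was 368, 347 and 359, with a mean of 358 ± 10.6 (SD, n = 3). The 3 wild type arrays lay close together, and the Khsrp-/- arrays fell on both sides of them, with array 1 the brightest and array 3 the dimmest of all 6. On the log2 scale the unscaled difference, Khsrp-/- minus wild type, was 0.26 for Snap25 and 0.08 for Cadps.

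The arrays also differed in overall brightness. The 75th percentile of the log2 signal over all probes was 8.85, 8.46 and 8.42 in the Khsrp-/- mice, against 8.92, 8.96 and 8.73 in wild type, a difference of -0.29 between the group means. Subtracting it from each array, the scaling used for the main values here, therefore raised every Khsrp-/- minus wild type difference by 0.29. That step is larger than the unscaled difference of either gene. Over all tested probes the median difference was -0.29 as scanned and 0.00 once scaled.

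**Figure D1:**
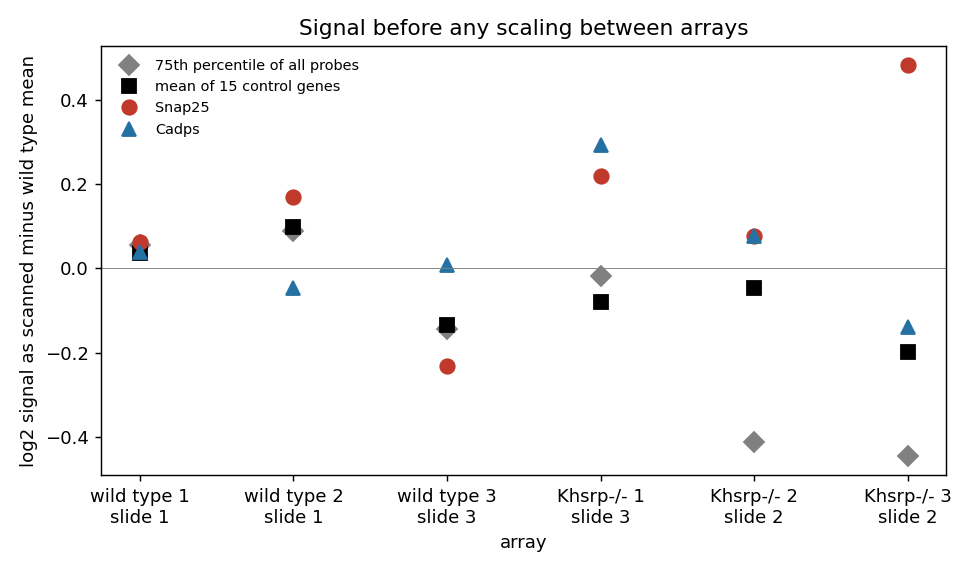
Log2 signal as scanned minus the wild type mean (vertical axis) for Snap25, Cadps, the 75th percentile of all probes and the mean of 15 control genes on each of the 6 arrays (horizontal axis, with the slide). On Khsrp-/- arrays 2 and 3 the 75th percentile lies 0.41 and 0.44 below the wild type mean, while Snap25 lies 0.08 and 0.48 above it and Cadps 0.08 above and 0.14 below it.

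After scaling to the 75th percentile, both genes were higher on all 3 Khsrp-/- arrays than on any wild type array, as were 12.4% of tested probes. The scaled log2 signal of Snap25 was 5.30, 5.55 and 5.99 on the Khsrp-/- arrays (mean 5.61 ± 0.35, SD, n = 3). On the wild type arrays it was 5.07, 5.15 and 4.97 (mean 5.06 ± 0.09, SD, n = 3). The Khsrp-/- values were spread over 0.69 and the wild type values over 0.17, with a gap of 0.15 between the lowest Khsrp-/- and the highest wild type array. The difference was 0.55 with a standard error of 0.20, or 1.46-fold.

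Scaled in the same way, Cadps was -0.07, 0.10 and -0.08 on the Khsrp-/- arrays (mean -0.02 ± 0.10, SD, n = 3). It was -0.40, -0.52 and -0.24 on the wild type arrays (mean -0.39 ± 0.14, SD, n = 3). Here Khsrp-/- array 2 was the highest, and the gap between the groups was again 0.15. The difference was 0.37 with a standard error of 0.15, or 1.29-fold.

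The paralog Cadps2 had scaled log2 signals of -0.17, -0.20 and 0.05 on the Khsrp-/- arrays (mean -0.11 ± 0.14, SD, n = 3). Its wild type arrays gave -0.41, -0.56 and -0.33 (mean -0.43 ± 0.12, SD, n = 3). Khsrp-/- array 3 was the highest and the groups did not overlap. The difference was 0.33 with a standard error of 0.16, and it was 0.03 as scanned, where the groups overlapped.

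In the authors' own normalized log2 values the group means differed by 0.49 for Snap25, 0.37 for Cadps and 0.33 for Cadps2, and the groups did not overlap. The share of all probes without overlap in those values was not computed, and the genes came from a table selected on this contrast. In these values Snap25 was 14.23, 14.19 and 14.60 in the Khsrp-/- mice, against 13.87, 13.91 and 13.75 in wild type. The order of the first and second Khsrp-/- arrays differed from that under 75th percentile scaling.

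**Figure D2:**
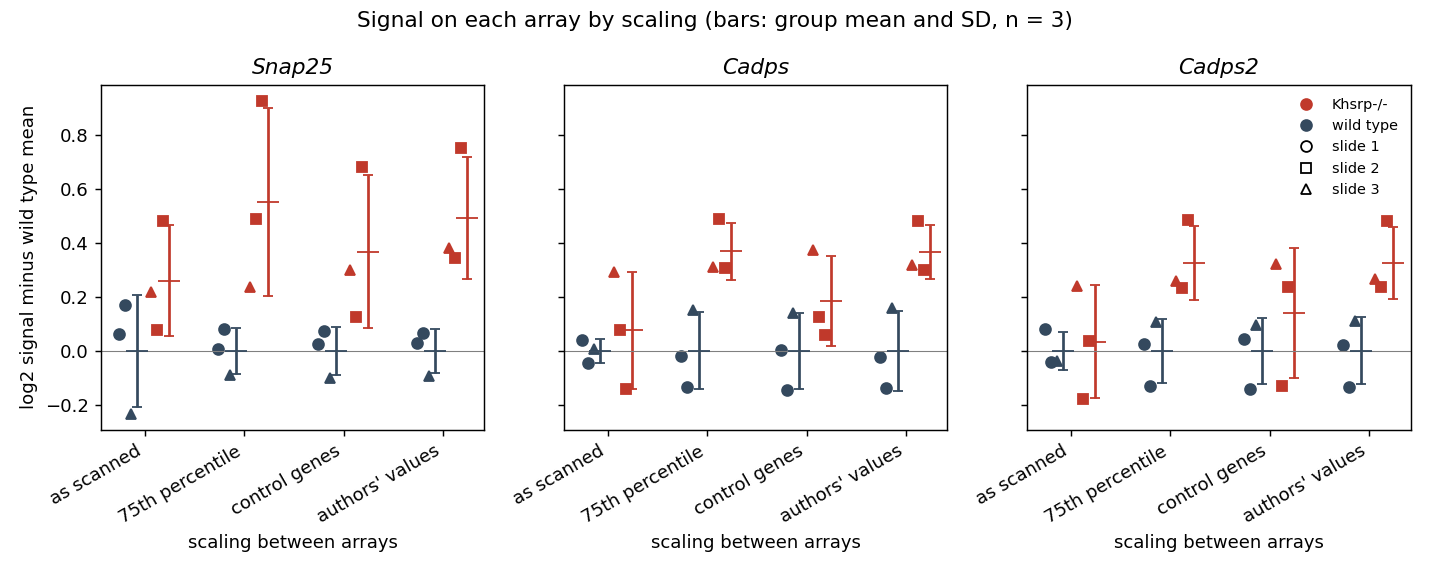
Log2 signal minus the wild type mean (vertical axis) of Snap25, Cadps and Cadps2 on each array, as scanned and after 3 ways of making arrays comparable (horizontal axis). Points are arrays, marker shapes are slides, and bars are the group mean and SD (n = 3). The genotypes overlap as scanned for all 3 genes, and for Cadps and Cadps2 also when scaled by control genes.

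Many other probes moved as far. Among 48436 tested probes, 8.18% had a difference at least as high as that of Snap25 and 15.8% at least as high as that of Cadps. The lowest Khsrp-/- array exceeded the highest wild type array for 5.88% of probes when scaled by control genes and for 4.20% as scanned. The reverse held for 9.90% under 75th percentile scaling. Since the genes came from a table selected on this contrast, nothing is read from these shares.

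**Figure D3:**
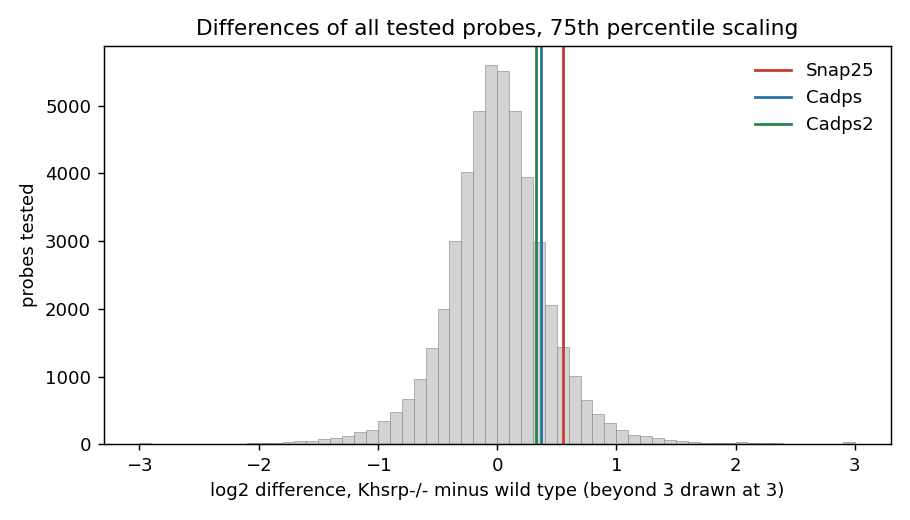
Number of tested probes (vertical axis) by log2 difference, Khsrp-/- minus wild type, after 75th percentile scaling (horizontal axis, values beyond 3 drawn at 3). Coloured lines mark Snap25 at 0.55, Cadps at 0.37 and Cadps2 at 0.33, all on the upper shoulder of a distribution with a median of 0.00.

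The residual SD of Snap25 between arrays of a genotype was 0.25, close to the median of 0.25 over all tested probes. Cadps varied less, with a residual SD of 0.13, and 10.4% of tested probes varied less than it did. The software's estimate for the error of a single spot, 0.14, lay between the residual SDs of these genes. Between replicate spots of control genes within an array, the median SD was smaller, 0.02 to 0.05. Those genes were brighter on average than Cadps.

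A set of 15 control genes, each printed in 20 spots, gave another reference. After 75th percentile scaling 12 of the 15 were higher in the Khsrp-/- mean and 3 were lower, with a median of 0.20 and a range from -0.43 for Actb (beta-actin) to 0.67 for Tfrc (the transferrin receptor). Of these, 1 had a difference as high as that of Snap25, and 2 as high as that of Cadps. When arrays were scaled by the mean of the control genes instead, a choice made after the data were seen, the difference was 0.37 for Snap25, 0.19 for Cadps and 0.14 for Cadps2. The Snap25 groups still did not overlap, by 0.05, while those of Cadps and Cadps2 did. On that scale 29.9% of all probes had a higher mean in Khsrp-/-, against 49.9% under 75th percentile scaling, and the median of all probes was -0.18.

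Equal scan times were taken to mean a shared slide. Wild type arrays 1 and 2 shared one, Khsrp-/- arrays 2 and 3 another, and only the slide with Khsrp-/- array 1 and wild type array 3 held both genotypes. On that slide the scaled Snap25 signal was 5.30 in the Khsrp-/- mouse and 4.97 in the wild type mouse, 0.33 apart. Cadps was -0.07 and -0.24, 0.16 apart, and Cadps2 was 0.15 apart. These are single pairs with no replicate. Between arrays 2 and 3 of Khsrp-/- and arrays 1 and 2 of wild type, slide and genotype cannot be told apart.

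The scanner software had applied a correction for uneven hybridization to Khsrp-/- array 3 alone. There it changed 98.3% of non-control spots, with the dimmest spots left out of that share. That array had the highest Snap25 signal. Without the correction, another choice made after the data were seen, the scaled Snap25 signal there was 5.98 and the Snap25 difference 0.55, while the differences of Cadps and Cadps2 were 0.38 and 0.30. Without Khsrp-/- array 3 the Snap25 difference was 0.36, and without Khsrp-/- array 1 it was 0.71. For Cadps, leaving out any 1 array gave between 0.30 and 0.44.

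Ratios between these genes within an array do not depend on a scaling that shifts all log2 signals of an array by the same amount, as the main scaling does. Quantile, cyclic loess and the authors' normalized values can change them. The differences of Snap25 and Cadps were 0.55 and 0.37 under the main scaling, against 0.49 and 0.37 in the authors' values. The ratios given here were not computed after those other methods. The log2 ratio of Snap25 to Cadps, set to a wild type mean of 0, was -0.08, 0.00 and 0.62 in the Khsrp-/- mice, against 0.02, 0.22 and -0.24 in wild type. Its mean was 0.18 higher in Khsrp-/- (SD 0.38 and 0.23, n = 3 each) and the groups overlapped, with Khsrp-/- array 3 alone standing high. Snap25 over Cadps2 had the largest shift, 0.23 (SD 0.23 and 0.20, n = 3 each). It was -0.02, 0.26 and 0.44 in the Khsrp-/- mice, against -0.02, 0.21 and -0.20 in wild type. For Cadps over Cadps2 the shift was 0.04. The groups overlapped in these ratios as well. An unequal change of these genes was therefore not detectable above the spread between arrays.

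Across the 6 arrays, scaled Snap25 and Cadps had a Pearson r of 0.61. Taken as deviations from the mean of each genotype, their r was -0.30. For Snap25 and Cadps2 the r was 0.84 across the arrays and 0.50 for the deviations. For Cadps and Cadps2 it was 0.80 and 0.24. These correlations share the arrays, their scaling and their slides, and are descriptions over 6 points.

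Among 1665 other named probes above background on all arrays, the genes whose pattern was most like that of Snap25 were Arpp19 (r = 0.996, an inhibitor of protein phosphatase 2A), Galt (0.996, galactose-1-phosphate uridylyltransferase), Arhgef2 (0.995), Nipal2 (0.994) and Fbxo3 (0.993, an F-box protein of ubiquitin ligases). Each was highest on Khsrp-/- array 3. Most like Cadps were Ubr3 (0.998, a ubiquitin ligase), Ube2j1 (0.996, a ubiquitin-conjugating enzyme of the endoplasmic reticulum), Zfp618 (0.993, a zinc finger protein), Mfsd3 (0.992, of a transporter family) and Tsacc (0.990). Each of these was highest on Khsrp-/- array 2. All the genes most like Snap25 or Cadps were named from the table's genes higher in Khsrp-/-. Close likeness was common over 6 arrays. Of all probes above background on every array, 2272 had an r over 0.9 with Snap25 and 1123 with Cadps.

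The wider exocytosis machinery was read from a list of 110 genes. Probes for 20 of them could be named from the supplementary table. The other 90 are not analysed here, and some may be in that table without a matched probe. Of the 20, 18 were tested. Among these 18, 16 were higher and 2 lower in the Khsrp-/- mean, with a median difference of 0.46 beside 0.00 over all tested probes. The 16 were named from the table's genes higher in Khsrp-/- and the 2 from its genes lower. At an unadjusted p under 0.05 and a log2 difference of at least 0.32 in limma, the thresholds of the study's array plot, 13 were past as higher and 1 as lower, beside 9.26% and 7.03% of all tested probes. None passed after Benjamini-Hochberg adjustment, beside 0.0826% of all tested probes called higher. The naming table was selected on these values, and its lower genes were named only in part. The counts therefore describe the genes that could be named and are no evidence of a direction. As scanned the list median was 0.17, and on the slide that held both genotypes it was 0.16.

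Of the other SNARE genes, Vamp4, a vesicle SNARE of the trans-Golgi and endosomes, differed by 0.37 (SE 0.14), with the groups apart. Vamp7, a SNARE of late endosomes and of neurite outgrowth, differed by 0.43 (SE 0.20), did not pass the threshold and was -0.11 on the shared slide. Stx19 was well above background on 2 Khsrp-/- arrays and on no wild type array, and was not tested. Its Khsrp-/- mean, which includes an array not well above background, was 1.39-fold the background bound of the wild type arrays.

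The genes that act on SNARE complexes lay close to Snap25 in size. Napa encodes alpha-SNAP, which with NSF takes spent complexes apart, and differed by 0.49 (SE 0.18). Stxbp2 (Munc18-2), a partner of syntaxin, differed by 0.52 (SE 0.17), and Stxbp5l (tomosyn-2), an inhibitor of complex assembly, by 0.48 (SE 0.19). All 3 were past the unadjusted threshold, as were 9.26% of all tested probes. On the shared slide they differed by 0.05, 0.15 and 0.05.

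Besides Cadps and Cadps2, the priming and active zone genes held Rimbp2, which links calcium channels to the release site. It differed by 0.45 (SE 0.15) and by 0.47 on the shared slide.

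Calcium sensors, clamps and Rab proteins were mixed. Sytl2, a Rab27 effector, differed by 0.76 (SE 0.15), the largest rise in the list among tested genes, and by 0.92 on the shared slide. Rab3b, a vesicle GTPase, differed by 0.67 (SE 0.18), and Cplx3, a complexin that binds the SNARE bundle, by 0.41 (SE 0.17). Doc2g differed by 0.35 (SE 0.15) without passing the threshold. Scgn (secretagogin), a calcium-binding protein of certain interneurons and endocrine cells, was -2.05, -0.01 and -1.52 in the Khsrp-/- mice, against -0.27, -0.41 and 0.68 in wild type. Its groups overlapped, and its difference of -1.19 (SE 0.54) did not pass. Syt15 was well above background on 1 Khsrp-/- array alone and was not tested.

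Of the genes of vesicle retrieval, Snap91 (AP180, a clathrin assembly protein) differed by 0.49 (SE 0.15) and Dnm3 (a dynamin) by 0.48 (SE 0.20). On the shared slide the differences were 0.33 and 0.01. The exocyst, a complex that tethers vesicles to the plasma membrane, had members in both directions. Exoc2 differed by 0.55 (SE 0.22), with overlapping groups and -0.02 on the shared slide. Exoc3l4, a relative of an exocyst subunit, was -2.33, -1.62 and -3.14 in the Khsrp-/- mice, against -0.85, -0.71 and -0.46 in wild type, a difference of -1.69 (SE 0.36), and it was the only tested gene of the list with its Khsrp-/- arrays all below wild type.

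**Figure D4:**
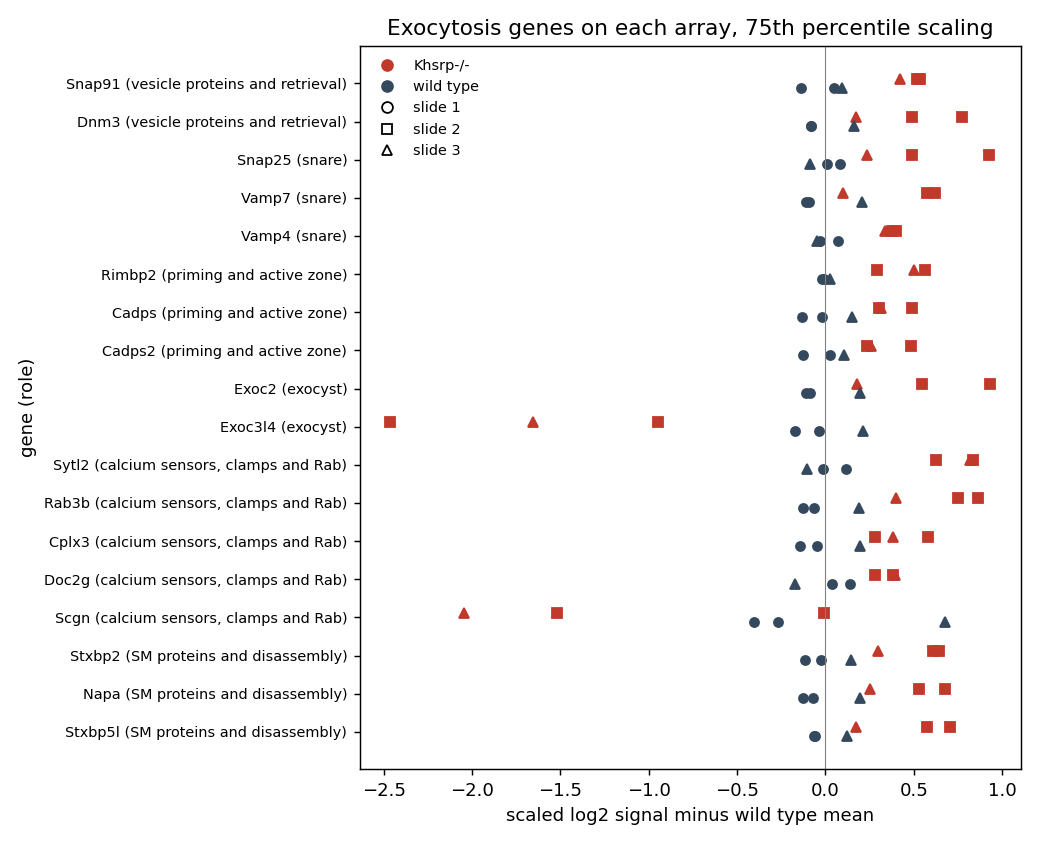
Scaled log2 signal minus the wild type mean (horizontal axis) on each array for the 18 tested exocytosis genes (vertical axis, role in brackets). Red points are Khsrp-/- arrays, dark points wild type arrays and marker shapes slides. For 14 genes every Khsrp-/- array lies above every wild type array, beside 12.4% of all tested probes, and for Exoc3l4 every one lies below, beside 9.90%, and the triangles mark the shared slide, where the median difference is 0.16.

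Markers of the cells that the neocortex holds moved as well. Of 12 neuronal markers listed, 6 were named, all well above background on every array. Thy1, Nrgn and Nefh were higher (0.43, 0.58 and 0.50) and Camk2a, Elavl3 and Elavl4 lower (-0.86, -0.79 and -1.36). Their summed scaled signal, in multiples of each array's 75th percentile, was 211 to 283 in the Khsrp-/- mice, against 336 to 400 in wild type. Most of that sum was Elavl4 on the wild type arrays and Khsrp-/- array 1, but not on Khsrp-/- arrays 2 and 3. Without Elavl4 the sum was 130 to 161 in Khsrp-/- and 126 to 152 in wild type, with the groups overlapping. For 2 of 6 astrocyte markers it was 47.8 to 69.0 and 35.1 to 43.3, and for 2 of 6 microglial markers 1.61 to 2.56 and 1.18 to 1.42. The 1 named of 5 oligodendrocyte markers, Pllp, gave 15.1 to 20.7 and 9.78 to 12.8. The 1 named of 5 endothelial and mural markers, Col3a1, gave 0.20 to 0.47 and 0.08 to 0.14, and its log2 difference of 1.45 was the largest among the named markers. The markers were named from the same selected table, whose lower genes were named only in part. The part that cell composition has in the Snap25 and Cadps values was not tested.

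**Figure D5:**
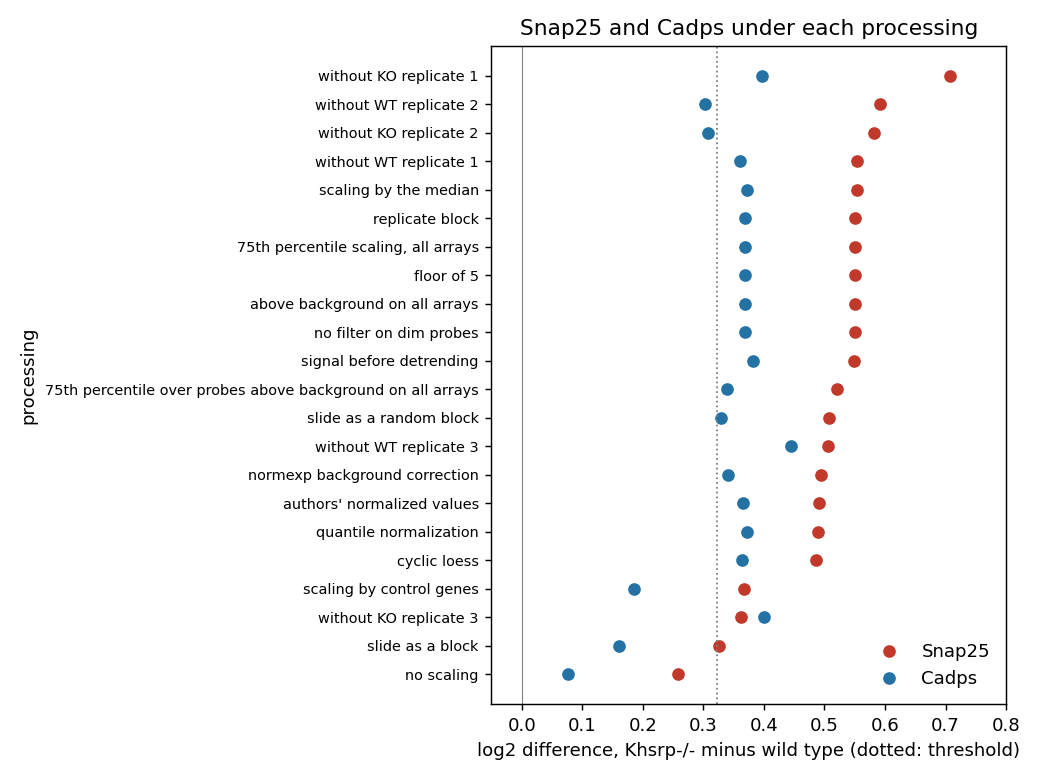
Log2 difference, Khsrp-/- minus wild type (horizontal axis), of Snap25 and Cadps under each processing (vertical axis). The dotted line marks a difference of 0.32. All values are above 0, and the lowest, without scaling, are 0.26 and 0.08.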

How the data were processed

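The authors deposited the scanner output of 6 one-colour Agilent arrays, read with version 11.0.1.1 of the Feature Extraction software. The deposited intensity is the processed signal, from which that software had subtracted background, with no scaling between arrays. Marks for spots above background, saturated or outlying are flags and not measurements. The authors also deposited normalized log2 values, whose method is not given in the sources used here, and the submitters' processing notes name limma. Ribosomal RNA had been removed, and oligo(dT) and random primers were used for labelling.

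Control and outlier spots were left out, spots of a probe were averaged, and log2 signals were scaled by the 75th percentile of each array. Probes well above background on at least 3 arrays were tested (48436) with limma 3.58.1 in R 4.3.3, with Benjamini-Hochberg adjustment, after a test on simulated data. Between 71.3% and 82.6% of spots were well above background. The number of arrays limits the precision. The p-values set the difference between genotypes against the spread between arrays of a genotype, with variances moderated over all probes. Differences between mice and between slides are mixed in that spread. Where a slide held a single genotype, slide differences can also enter the difference between genotypes.

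Snap25, Cadps, Cadps2 and every named gene of the exocytosis list are given, with the 5 named genes of highest r with each of Snap25 and Cadps. Where a gene had several probes, the brightest was used. The genes and lists were chosen with earlier results of these data known. Gene symbols came from the supplementary table, and those of the control genes from RefSeq accessions. For genes the table lists as lower in Khsrp-/-, the probe was found by matching the table's raw intensities to the scanner signal. Lower genes without a single matching probe were left out. The table's values were not used otherwise. Alternatives were quantile, median, cyclic loess and no scaling, the authors' values, normexp with an offset of 50, other filters, a floor of 5, slide and replicate blocks, other variance models, the methods' t-test and each array left out. Python packages were pandas 2.3.3 and, for plots, matplotlib 3.10.9.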

Additional observations from a re-analysis of the deposited data

How the results depend on the processing

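The differences of Snap25, Cadps and Cadps2 were above 0 under all 17 alternatives that could move them. These genes came from a table selected on this contrast in these arrays, so the sign is no evidence of a direction. Another 4 alternatives (both filters, the floor and the replicate block) return the same differences by construction. Without scaling they were 0.26, 0.077 and 0.033, and the exocytosis list median was 0.17. With slide as a block, the difference rests on the single pair of arrays that shared a slide. It was 0.16 for Cadps, 0.15 for Cadps2 and 0.16 for the list, and with scaling by control genes 0.19, 0.14 and 0.28. Leaving out 1 array gave 0.36 to 0.71 for Snap25, 0.30 to 0.44 for Cadps, 0.25 to 0.38 for Cadps2 and 0.36 to 0.56 for the list. The differences reached the threshold of 0.32 under 16 of 17 for Snap25, 12 for Cadps and 8 for Cadps2. The causes were not tested.

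Over all probes 4484 were higher and 3405 lower at the unadjusted threshold, and 46 passed after adjustment. Higher probes numbered 1221 without scaling, 1832 with control genes and 1767 with the slide block. Lower probes numbered 7287, 5081 and 1102, with 1815 by the methods' t-test and 2214 with slide as a random block. After adjustment 72 passed with median scaling, 23 without scaling, 25 with normexp, 23 above background on all arrays, 25 with control genes, 0 with the slide block, 97 with trend and robust variances, 1 by the methods' t-test and 27 with the random block. The slide block left 1767 higher and 1102 lower unadjusted in limma. Leaving out 1 array gave 2520 to 6641 higher, 1495 to 6409 lower and 6 to 2046 adjusted. The highest counts were without Khsrp-/- array 1. Counts also moved by over 1.5 times without Khsrp-/- array 3 (2823 higher, 1966 lower, 12 adjusted), wild type array 1 (2520, 1495 and 13) and wild type array 2 (2752, 1656 and 6), and the adjusted count without Khsrp-/- array 2 (29). Control genes, the signal before detrending and the random block were chosen after seeing the data.

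Replicate numbers were not treated as pairs in the main fit. Same-numbered arrays correlated at -0.33, 0.11 and -0.33 in their deviations, and the pair on the shared slide at 0.40. With so few arrays and with slides shared, these values cannot exclude a pairing. The replicate block cannot move a mean difference in this balanced design, so Snap25, Cadps and Cadps2 were 0.55, 0.37 and 0.33, and it gave 3540 probes higher, 2668 lower and 1 after adjustment.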
